A study of Rattus norvegicus with 2 samples.

Results

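The respiratory chain and ATP synthase genes of the small mesenteric artery were described here through 100 probe sets that name 54 genes, out of 8799 probe sets on the array. The members were all probe sets with a single gene symbol that starts with Nduf, Sdh (Sdhaf left out), Uqcr, Atp5, or Cox followed by a digit. Complex I had 27 genes on 49 probe sets, complex II 1 gene on 1 probe set, complex III 3 genes on 6, complex IV 13 genes on 27 and complex V 10 genes on 17. The symbol rule also brought in the complex I assembly factor Ndufaf3, the ATP synthase inhibitor Atp5if1 and the pseudogene Cox6c-ps1.

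The study compared first and second order small mesenteric arteries, the muscular vessels that feed the intestine, of rats with prehepatic portal hypertension after partial ligation of the portal vein with those of sham-operated control rats. Each group was 1 pool of total RNA from 20 rats, read on 1 Affymetrix RG_U34A array, and the labels give no strain, age or time after the operation. With 1 array a group no test was possible and no value has an error across rats, so each ratio compares 2 pools. The sham array ran on fluidics module 2 with 17 µg of labelled cRNA and the portal hypertensive array on module 1 with 12.5 µg, both amounts noted with a question mark in the file headers, so module, amount and operation cannot be told apart. The medians of the arrays were 557 and 525.7 signal units. Of the 10 smooth muscle markers on the array 10 had a value, and Myh11, the smooth muscle myosin heavy chain gene, read 58648 for the sham and 53648 for the portal hypertensive array on its probe set X16262_s_at. Below, a pair of signals always gives sham first.

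The respiratory chain passes electrons from NADH through complex I, or from succinate through complex II, to ubiquinone, then through complex III and cytochrome c to complex IV, which reduces oxygen. Complexes I, III and IV pump protons across the inner mitochondrial membrane, and complex V, the ATP synthase, uses that gradient to make ATP. The members are nuclear genes, since the subunits encoded in mitochondrial DNA have other symbols. Arterial smooth muscle uses both oxidative and glycolytic ATP for contraction and ion transport.

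Promoters were examined because nuclear genes of the respiratory chain are known to share binding motifs for NRF1, ETS family factors (GABP) and YY1. RefSeq promoters of the assembly GRCr8, from 250 bases before to 50 bases after the gene start, were matched by gene ID for 46 of the 54 genes, and both strands were searched for exact letters. The NRF1 motif GCGCANGCG was in 9 member promoters (19.6%), against 9.31% of the promoters of 3825 other genes named on the array and 5.80% of all 33469 promoters. The ETS motif CCGGAAG was in 9 (19.6%, against 12.2% and 8.75%), and the YY1 motif AAGATGGCG, which holds the letters of a start codon, in 7 (15.2%, against 2.30% and 1.73%). The Sp1 motif GGGCGG was in 20 (43.5%, against 56.3% and 33.1%), the TATA motif TATAAA in 2 (4.35%, against 11.4% and 14.2%) and the estrogen-related receptor motif TCAAGGTCA in 0 (against 0.131% and 0.433%). The only overlap among member matches was that of the NRF1 motif with itself on both strands in Atp5po. In log2 ratio, portal hypertensive over sham signal, the median was -0.051 for the 9 genes with the NRF1 motif and -0.070 for the 37 without it, and -0.088 for the 7 with the YY1 motif and -0.054 for the 39 without it. These medians are descriptions of the letters in this window and have no test. The promoters of 5 genes are shown, the first 280 bases of the window (30 after the start), in lower case with every motif match in capitals. Cox4i1 (chr19:65630133-65630412 on the plus strand), Cox8a (chr1:213833594-213833873 on the minus strand) and Cox8b (chr1:205408244-205408523 on the minus strand) are ubiquitous and tissue isoforms compared below, Sdha (chr1:30764303-30764582 on the plus strand) held 3 NRF1 matches, the most of any member, and Ndufs4 (chr2:47794885-47795164 on the minus strand) held a YY1 match and was among the lower genes of complex I.
Cox4i1: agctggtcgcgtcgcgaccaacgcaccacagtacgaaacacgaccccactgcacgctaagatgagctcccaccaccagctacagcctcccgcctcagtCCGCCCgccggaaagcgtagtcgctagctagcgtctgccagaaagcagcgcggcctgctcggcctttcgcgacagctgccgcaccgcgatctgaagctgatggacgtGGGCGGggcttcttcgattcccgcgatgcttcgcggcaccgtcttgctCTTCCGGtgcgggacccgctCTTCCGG
Cox8a: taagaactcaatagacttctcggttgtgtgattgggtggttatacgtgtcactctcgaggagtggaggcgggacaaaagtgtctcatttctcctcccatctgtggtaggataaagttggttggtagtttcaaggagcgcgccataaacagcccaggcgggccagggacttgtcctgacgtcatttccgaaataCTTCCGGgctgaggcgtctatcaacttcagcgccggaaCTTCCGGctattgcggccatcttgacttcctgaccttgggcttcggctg
Cox8b: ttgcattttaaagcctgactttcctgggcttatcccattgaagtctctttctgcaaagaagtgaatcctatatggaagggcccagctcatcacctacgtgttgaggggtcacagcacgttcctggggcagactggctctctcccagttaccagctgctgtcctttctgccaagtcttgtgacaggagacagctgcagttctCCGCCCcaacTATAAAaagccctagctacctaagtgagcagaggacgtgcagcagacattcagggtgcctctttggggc
Sdha: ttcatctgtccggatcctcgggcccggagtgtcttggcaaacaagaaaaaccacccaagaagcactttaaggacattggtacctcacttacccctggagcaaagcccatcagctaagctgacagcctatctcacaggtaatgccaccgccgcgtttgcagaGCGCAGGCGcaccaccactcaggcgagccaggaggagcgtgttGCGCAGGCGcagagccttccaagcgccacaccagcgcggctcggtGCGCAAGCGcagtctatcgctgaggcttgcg
Ndufs4: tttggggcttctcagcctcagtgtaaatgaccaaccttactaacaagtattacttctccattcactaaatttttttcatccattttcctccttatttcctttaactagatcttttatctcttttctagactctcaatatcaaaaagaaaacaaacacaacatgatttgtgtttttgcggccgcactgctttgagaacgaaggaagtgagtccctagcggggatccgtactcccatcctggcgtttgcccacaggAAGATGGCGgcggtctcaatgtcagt
Cox4i1 and Cox8a each carried 2 ETS matches. Cox8b, the muscle isoform, carried no ETS match but a TATA match at base -39 from the gene start and an Sp1 match at -49.

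As a group the members differed little between the pools. A floor of 330.9 signal units, the 40th percentile of both arrays without control probe sets, separated measured from dim signals. Both pools lay above it for 87 of the 100 probe sets, 1 pool for 3, and neither for 10. Over all 8740 probe sets that are not controls, 56.8% were above the floor in both pools. A gene was given the median log2 ratio of its probe sets with at least 1 pool above the floor, which left 53 genes with a value and only the pseudogene Cox6c-ps1 without one. The median over these 53 genes was -0.054, against -0.023 over all 3351 named genes with a value. Of the members 32 lay below 0 and 21 above, and below 0 were 60.4% of members against a background of 53.2% of all genes. These shares depended on the scaling, with 66.0% against 48.3% after quantile normalization and 67.9% against 48.7% after loess.

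**Figure D1:**
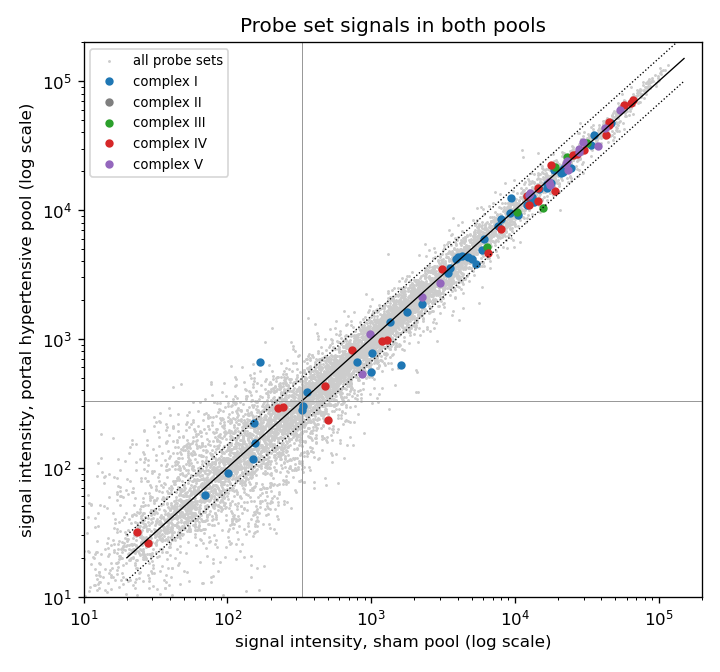
Signal intensity of each probe set in the sham pool (x axis) and the portal hypertensive pool (y axis), both on log scales from 10 upward, with members coloured by complex and all probe sets in grey. The solid line marks equal signal, the dotted lines 1.5-fold, and the thin grey lines the floor of 330.9. Most members lie close to the line of equal signal. The 52 with a signal of 10000 or more are split into 26 above and 26 below it. Of the 28 from 1000 to 10000 measured in both pools, 7 lie above it and 21 below, and of the 7 dimmer ones 2 and 5. Other named probe sets lay above it in 59.5%, 46.8% and 44.1% of these classes.

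Few members passed even a small fold. At 1.2-fold, 2 genes were higher in the portal hypertensive pool (Ndufa8 and Cox7b) and 4 lower (Ndufs1, Ndufs4, Cox4i2 and Cox8b), where the background was 15.5% and 20.4% of all genes. Ndufs4 ended below this fold, at -0.19, with the floor lowered to the 20th percentile and with the brightest probe set per gene, Ndufs1 with a 60th percentile floor, at -0.16. The lower ones numbered 8 of 43 genes without suffix-marked probe sets, and 2 of 49 with bright signals only. Suffix-marked means a letter s, f, r, i, g or x before the ending of the probe set name. Some of these letters mark possible shared probes. At 1.5-fold, 0 were higher and 2 lower, against 3.13% and 5.04%. Because 1.5-fold lower rests on 2 dim genes (Ndufs1 and Cox8b), this count was 0 when only probe sets of 1000 signal units or more in both pools were used. The SD of the gene ratios was 0.20 for the members and 0.34 for all genes. Probe sets of 1 gene scattered around their gene's mean with an SD of 0.30 over all genes (1801 probe sets of 789 genes) and 0.29 over the members (59 of 24), and 47 of the 53 member genes lay within 0.30 of 0. Many members have bright signals, where ratios scatter less. Among probe sets with a mean signal of 10000 or more, the SD was 0.17 over 52 members and 0.24 over 501 others, and 9.62% of members against 21.2% of the others were past 1.2-fold in either direction. The median of these bright members was 0.001 and that of the others 0.047. Dimmer members were lower more often. From 1000 to 10000 units 7 were above 0 and 21 below, with a median of -0.11, against -0.019 for the others. There 25.0% of members and 46.8% of the others were above 0, and 32.1% and 35.1% were past 1.2-fold. Below 1000 units 2 members were above 0 and 5 below, with a median of -0.26, against -0.054 for the others. In that class 57.1% of members and 44.7% of the others were past 1.2-fold.

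**Figure D2:**
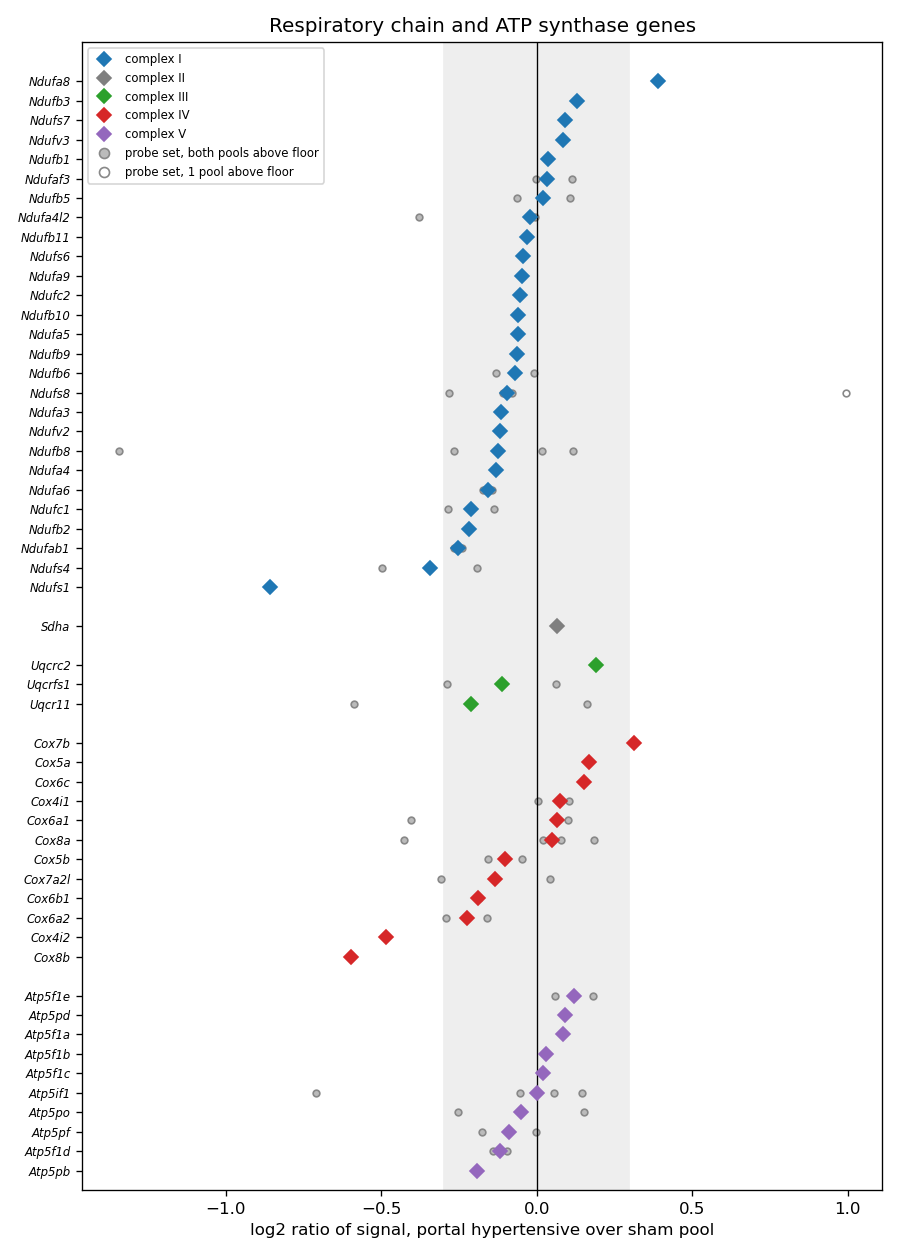
Log2 ratio of portal hypertensive over sham signal (x axis) for each of the 53 member genes (y axis), as a diamond coloured by complex, with single probe sets as circles; the grey band is 0.30 on each side of 0, the scatter within genes. Most diamonds lie inside the band, 20 of the 27 genes of complex I lie left of 0, and Ndufs1, Cox8b and Cox4i2 lie farthest left. Of all named genes 53.2% lay below 0.

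Complex I, the NADH dehydrogenase that is the entry of electrons from NADH, had most of its genes slightly lower in the portal hypertensive pool. Of 27 genes 20 lay below 0 and 7 above, with a median log2 ratio of -0.061 (range -0.86 to 0.39). These are 74.1% below 0, against 53.2% of all named genes, whose median was -0.023. At 1.2-fold 2 were lower and 1 higher, where 20.4% and 15.5% of all named genes were. The 20 include Ndufa4 and Ndufa4l2, taken up after the membrane arm below. The median of complex I stayed below 0, between -0.084 and -0.057, under the 10 alternative settings tried.

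The matrix arm of complex I carries the flavin and the iron-sulphur clusters. Ndufs1, the large iron-sulphur subunit, read 996.4 and 549.8 on its single probe set, a log2 ratio of -0.86. It was the lowest gene ratio of complex I, and it came from a dim probe set, where ratios scatter more (SD 0.40 for other named probe sets below 1000 signal units). Among the other core genes of this arm, Ndufv2 read 21537 and 19859 (-0.12), and Ndufs7 3886 and 4143.6 (0.093). Ndufs8, a further iron-sulphur subunit, had 4 probe sets, with log2 ratios of -0.28, -0.11 and -0.080 on the 3 measured in both pools. Its dim probe set rc_AA799479_at went the opposite way, at 168.1 and 658.8, at least 1.99-fold higher. Among the accessory genes of the matrix arm, Ndufs4, which is needed for a stable NADH-binding module, read 5376 and 3809.5 on 1 probe set and 10481 and 9183 on the other. Both were lower in the portal hypertensive pool, with log2 ratios of -0.50 and -0.19, but they come from the same expressed sequence, and the third probe set was below the floor. Ndufa6, Ndufa5, Ndufa9 and Ndufs6 had -0.16, -0.061, -0.046 and -0.045, and Ndufv3 had 0.083. Ndufab1, the mitochondrial acyl carrier protein that also sits in complex I, was lower on both measured probe sets, at 13665 and 11572, and at 5043 and 4197 (-0.24 and -0.27).

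The membrane arm holds the proton pumps, and the members here are its accessory subunits. Of 13 genes 9 were below 0, with a median of -0.059. Ndufa8, an accessory subunit on the side of the intermembrane space, read 9382 and 12304, a log2 ratio of 0.39, the highest of all members, on 1 probe set. Ndufb3 followed in this arm with 18780 and 20543 (0.13). Ndufb2 read 24460 and 21015 (-0.22), and Ndufc1 was lower on both probe sets, with -0.28 and -0.14. Ndufb8 shows how far probe sets of 1 gene can part. Its bright probe sets read 46868 and 47404, and 35353 and 38308, with ratios of 0.016 and 0.12. Its dim ones read 1600.9 and 630.6, and 799.5 and 665.6, with ratios of -1.34 and -0.26. The bright pair and the dim pair thus went opposite ways, and its gene value of -0.12 turned to 0.066 with dim probe sets left out at 1000 signal units. Ndufb9, Ndufb10, Ndufc2, Ndufb6, Ndufa3 and Ndufb11 lay between -0.12 and -0.031, and Ndufb1 and Ndufb5 at 0.036 and 0.021. Ndufa4, named for complex I but since placed with complex IV, had -0.13. Its relative Ndufa4l2, a gene known to be induced by low oxygen, had -0.0070 and -0.38 on the probe sets measured in both pools. The assembly factor Ndufaf3 had 0.032 over 3 probe sets.

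Complex II was represented by Sdha alone, the flavoprotein that oxidizes succinate to fumarate. It read 12191 and 12760, a log2 ratio of 0.066. Quantile normalization gave 0.079 and loess 0.059, and the other settings could not move its single bright probe set. The pools were nearly equal for Sdha.

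Complex III, the cytochrome bc1 complex, had 3 genes with no common direction. Uqcrc2, a core protein of the matrix side, read 18848 and 21529 (0.19). Uqcrfs1, the Rieske iron-sulphur protein that hands electrons to cytochrome c1, had log2 ratios of 0.062, -0.11 and -0.29 on 3 probe sets. Uqcr11, a small subunit, read 15645 and 10412 on 1 probe set and 23103 and 25866 on the other (-0.59 and 0.16), which are opposite directions. The complex median of -0.11 turned to 0.16 with the brightest probe set per gene or without suffix-marked probe sets.

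Complex IV, cytochrome c oxidase, had an SD of gene ratios of 0.27, against 0.21 for complex I, 0.21 for the 3 genes of complex III and 0.10 for complex V. The value for complex IV includes Cox8b, whose ratio is a bound. Over measured probe sets the SDs of complexes IV and V were 0.22 and 0.21. Of 12 genes with a value 6 lay above 0 and 6 below, with a median of -0.026. The median turned to 0.049 with the floor at the 20th percentile, where the pseudogene Cox6c-ps1 also had a value and made 13 genes. Cox7b, a small subunit needed for assembly, read 17847 and 22183 (0.31), and it was the highest of the complex. Cox5a read 733.7 and 825.1 (0.17) and Cox6c 3119 and 3468 (0.15). Cox6b1, which lies at the interface of the oxidase dimer, was lower on both probe sets, at 43246 and 37998, and at 12551 and 10983, with ratios of -0.19 and -0.19. Cox5b had -0.16 and -0.046. Cox7a2l, a factor that joins complexes III and IV in supercomplexes, had -0.31 and 0.042 on its probe sets.

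In complex IV 3 subunits have both a ubiquitous and a tissue isoform on the array. The tissue isoforms Cox4i2 (lung, and induced by low oxygen), Cox6a2 (heart and skeletal muscle) and Cox8b (heart, skeletal muscle and brown fat) were all lower in the portal hypertensive pool, while their ubiquitous partners Cox4i1, Cox6a1 and Cox8a had gene ratios of 0.075, 0.066 and 0.049. Cox4i2 read 6540 and 4675.6 on its single probe set, a log2 ratio of -0.48. Quantile normalization gave -0.48 and loess -0.47. The other settings could not move this probe set, which lay above every floor and had no suffix letter. Cox4i1 read 12215 and 12870, 45367 and 45467, and 66608 and 71518 on 3 probe sets (log2 ratios between 0.003 and 0.10). The ratio of the single Cox4i2 probe set lay below those of the 3 Cox4i1 probe sets. How often other genes on the array part this far was not counted. Probe sets of 1 gene scattered with an SD of 0.30. Cox6a2 read 1186.6 and 970 on 1 measured probe set and 479.1 and 429.1 on the other (-0.29 and -0.16). Cox8b was above the floor in the sham pool only, at 500.3 against 236.2, at least 1.51-fold lower, and its second probe set was below the floor in both pools. All 3 probe sets of Cox4i1 carry the suffix letter s or i, so without suffix-marked probe sets this pair had no value for Cox4i1 and no contrast. For the Cox6a and Cox8 pairs the contrast depended on the probe set. Cox6a1 had 0.10 and 0.066 on 2 probe sets but -0.40 on the third, at 1299.1 and 981.6. Cox8a had ratios from 0.021 to 0.18 on 3 probe sets but -0.43 on the fourth, at 18931 and 14095. Without suffix-marked probe sets, Cox6a1 and Cox8a rested on those single lower probe sets. After quantile normalization or loess the gene value of Cox8a was also below 0.

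**Figure D3:**
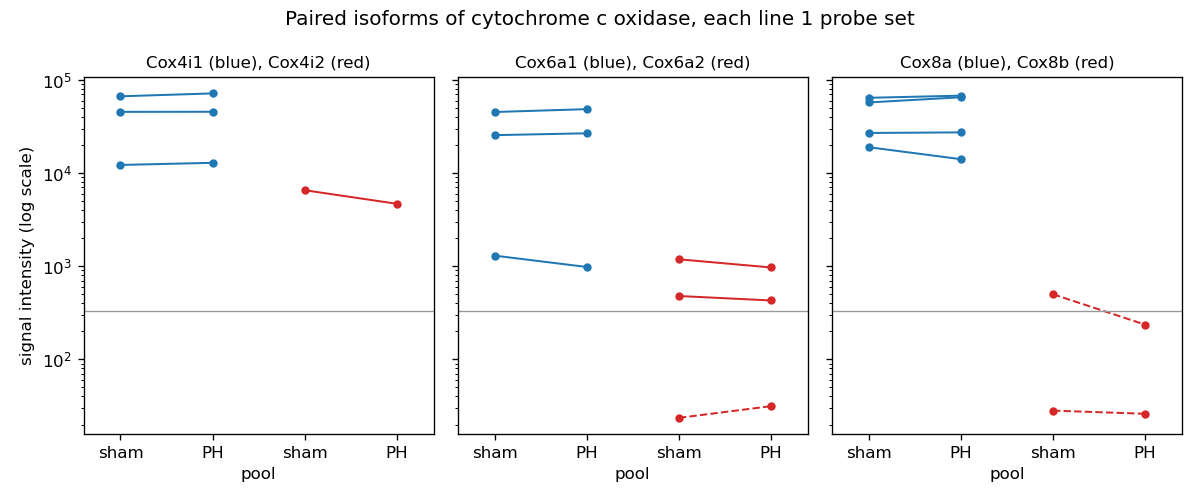
Signal intensity on a log scale (y axis) in the sham and portal hypertensive (PH) pools (x axis) for the ubiquitous (blue) and tissue (red) isoforms of 3 subunits of cytochrome c oxidase, with 1 line per probe set. Solid lines are probe sets above the floor (grey line, 330.9) in both pools and dashed lines the others; the line of Cox4i2 goes down from 6540 to 4675.6, while those of Cox4i1 are nearly level.

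Markers of muscle and fat, 2 of the tissues in which Cox6a2 and Cox8b are known, and of other cell types were set beside the isoforms, and lung markers were not listed for Cox4i2. Of 24 skeletal and cardiac muscle markers listed, 20 were on the array and 12 had a value, 6 above and 6 below 0, and the summed signal over all their probe sets was 12983 and 12957. Actc1, Myh2, Myh4, Myh7, Myl3, Tnni1, Tnni2 and Eno3 were below the floor in both pools. Of 14 adipocyte markers 11 were on the array and 9 had a value, 7 of them above 0, with a summed signal of 102846 and 123596, while Plin1 and Cebpa were below the floor. Of the brown fat markers Ucp1 and Dio2 were below the floor, and Cidea, a lipid droplet protein, read 3604 and 5351. Of 10 smooth muscle markers 6 were below 0, with a median of -0.088 and a summed signal of 789831 and 777928. Endothelial, fibroblast and macrophage markers were summed likewise. Of 9 endothelial markers on the array 6 had a value, 4 of them below 0, with a median of -0.19 and a summed signal of 11191 and 10227, and Kdr, Sele and Vwf were below the floor. Of 9 fibroblast markers 8 were above 0, with a median of 0.21 and a summed signal of 597833 and 657201. Of 8 macrophage markers on the array 6 had a value, 4 of them above 0, with a median of 0.33 and a summed signal of 48796 and 59446, and Csf1r and Itgam were below the floor. Of 6 nerve markers with a value 4 were above 0, and of 3 erythrocyte markers 2. The 2 intestinal epithelium and 3 exocrine pancreas markers with a value were all below 0. Of all named genes 46.8% lay above 0 and 53.2% below. In such bulk tissue fewer cells of a type and less RNA per cell cannot be told apart, and the part of these markers in the isoform ratios was not tested.

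Complex V, the ATP synthase, had the most even gene ratios of the complexes with 10 or more genes. Its 10 genes had ratios between -0.19 and 0.12, an SD of 0.10 and a median of 0.011, whose sign turned after quantile normalization (-0.020) and loess (-0.024). None of them was past 1.2-fold in either direction. Single probe sets were less even. Over the 17 measured probe sets of complex V the SD was 0.21, against 0.22 over 22 of complex IV and 0.28 over 41 of complex I. In the catalytic F1 head, Atp5f1b, the catalytic beta subunit, read 42115 and 42986 (0.030), Atp5f1a, the alpha subunit, 12697 and 13477 (0.086), and Atp5f1c, the gamma subunit of the rotating shaft, 27879 and 28293 (0.021). The sign of Atp5f1b turned under 1 and that of Atp5f1c under both of the other scalings. Atp5f1e, the epsilon subunit, was higher on both probe sets (0.060 and 0.18), and Atp5f1d, the delta subunit, was lower on both (-0.097 and -0.14). In the peripheral stalk, which holds the head still, Atp5pb read 23308 and 20392 (-0.19) and Atp5pd 27835 and 29629 (0.090). Atp5po went both ways on a pair of probe sets of 1 expressed sequence, at 37647 and 31568 (-0.25) and at 53937 and 59926 (0.15). Atp5if1, the inhibitor that blocks ATP hydrolysis when the gradient fails, had 0.15, 0.055 and -0.054 on 3 probe sets and -0.71 on the fourth, a dim one, at 868.4 and 530.5.

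**Figure D4:**
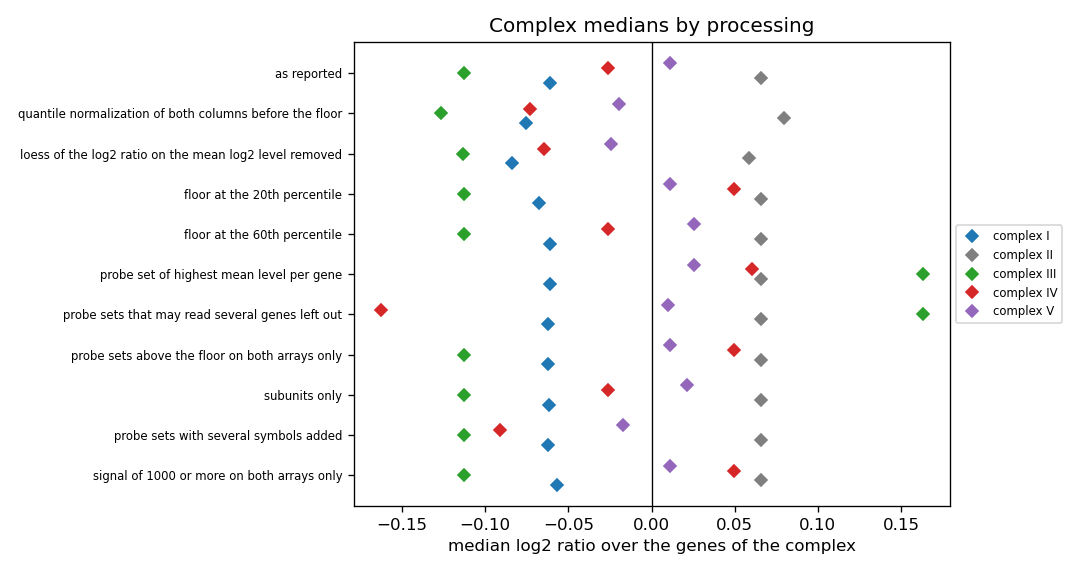
Median log2 ratio over the genes of each complex (x axis) as reported and under 10 alternative settings (y axis), coloured by complex. The medians of complex I stay between -0.084 and -0.057 and the single gene of complex II between 0.059 and 0.079, while those of complexes III, IV and V fall on both sides of 0. The gene of complex II could move only under quantile normalization and loess.

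Genes with several measured probe sets allow a check within the gene. There were 24 such members. In 12 all measured probe sets were lower in the portal hypertensive pool (Ndufs4, Ndufs8, Ndufab1, Ndufa6, Ndufa4l2, Ndufb6, Ndufc1, Cox5b, Cox6a2, Cox6b1, Atp5f1d and Atp5pf), in 2 all were higher (Cox4i1 and Atp5f1e), and in 10 they went both ways. Over all 789 genes with several measured probe sets, 33.6% were lower throughout and 23.6% higher throughout. Probe sets designed on 1 expressed sequence share their source, and even so 6 of 10 such sets of measured members went both ways, with a median gap of 0.25.

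Other genes of mitochondrial energy metabolism were set beside the members. Of 11 genes of the TCA cycle and pyruvate dehydrogenase with a value 9 were above 0, with a median of 0.055. These are 81.8% above 0, against 46.8% of all named genes. At 1.2-fold 1 was higher, Pc (pyruvate carboxylase, 0.58), and 1 lower, Pdhb (a subunit of pyruvate dehydrogenase, -0.28). Of all named genes 15.5% were higher and 20.4% lower at this fold. Of 9 genes of adenine nucleotide exchange, creatine kinase and uncoupling 8 were below 0, with a median of -0.048. These are 88.9% below 0, against 53.2% of all named genes. They include the creatine kinase gene Ckmt1, whose probe sets lay above the floor in the sham pool only, so its ratio is a bound. The adenine nucleotide carriers Slc25a4 and Slc25a5 had -0.027 and -0.048, the phosphate carrier Slc25a3 0.21, Ak3, a mitochondrial adenylate kinase, -0.52 and Ucp3, an uncoupling protein, -0.52. Of 16 fatty acid oxidation genes 10 were below 0, with a median of -0.13, and 5 were lower at 1.2-fold against 2 higher. These are 62.5% below 0 against 53.2% of all named genes, with 20.4% of all genes lower and 15.5% higher at 1.2-fold. The acyl-CoA dehydrogenases Acadvl and Acadl had -0.66 and -0.62, and the carnitine transferase Cpt2 0.37.

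Among 5 electron carriers and other chain components outside the symbol rule the median was -0.031. Cyc1, which encodes the cytochrome c1 subunit of complex III, had 0.071, and Etfdh, which feeds electrons from fatty acid oxidation to ubiquinone, had -0.30 over 3 probe sets (from -1.27 to -0.029). The 3 assembly factors outside the rule had a median of 0.084, led by Nubpl, which builds iron-sulphur clusters into complex I, at 0.48. Of 22 regulators of mitochondrial biogenesis listed, 6 were named on the array, and Ppargc1a, Nrf1, Gabpa and Tfam were not among them. The 4 with a value were above 0, as were 46.8% of all named genes. Hif1a had 0.27, Ppard 0.13 and Thra 0.070, while Ppara, with 1 pool above the floor, had a bound of 0.028. Esrra and Thrb were below the floor. The 10 genes of mitochondrial import and chaperones had a median of -0.020, with Timm44 at 0.48. Of the 8 antioxidant enzymes 5 were below 0, with a median of -0.17, Txnrd2 and Gpx1 both at -0.24 and Nnt at 0.22. Of the 13 glycolysis genes 8 were below 0, with a median of -0.070 and 4 lower and 1 higher at 1.2-fold, led by Pfkl at -0.82. These are 61.5% below 0 against 53.2% of all named genes, of which 20.4% were lower and 15.5% higher at 1.2-fold. The median over all named genes was -0.023.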

How the data were processed

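The table deposited by the authors gives a linear intensity for each probe set on each RG_U34A array. How they scaled it and corrected background is not given in the sources used here, and neither is the software. Their means after leaving out 2% of values at each end were 2504.33 and 2504.38, so the columns were used as deposited. The instrument records hold other settings of the run (module, cRNA note), taken per the file headers.

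Values were raised to a floor at the 40th percentile (330.9) before log2 was taken, because the table used here holds no detection calls. Ratios of probe sets with 1 pool above the floor are bounds. Names came from the platform annotation, and RefSeq gene IDs (GRCr8) matched 54 of 54 members and changed 0 symbols. With 1 array a group nothing was tested. Genes were counted past 1.2-fold and 1.5-fold, and the same count over all named genes served as background. The member rule, the gene lists and the folds were chosen with earlier results of these data known. Every member could be named, in full those that lead a complex, pass 1.2-fold, have several probe sets or are paired isoforms. For each other pathway list the plan was to name up to 3 genes, those of largest absolute ratio. The text departs from this for the lists of nucleotide exchange, electron carriers and regulators. The calculation was tested on simulated data. Python 3.11.15, pandas 2.3.3 and statsmodels 0.14.6 (loess span 0.3) were used.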

Additional observations from a re-analysis of the deposited data

How the results depend on the processing

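The values were recomputed under 7 planned settings (quantile normalization, loess, floors at the 20th and 60th percentile, the brightest probe set per gene, suffix-marked probe sets left out, and only probe sets above the floor in both pools) and 3 chosen after seeing the data (subunits only, probe sets with several symbols added, and a signal of 1000 or more in both pools). The median over all members stayed between -0.079 and -0.031, and that of complex I below 0. The signs of complexes III, IV and V turned under 2, 4 and 3 of 10 settings. With a 20th percentile floor 4 genes were at least 1.2-fold higher, among them Cox6c and the dim pseudogene Cox6c-ps1, which read 244.7 and 296.3. The count at least 1.2-fold lower was 8 without suffix-marked probe sets and 2 with bright signals only. The count at least 1.5-fold lower was 1 after quantile normalization, after loess, without suffix-marked probe sets and with probe sets above the floor in both pools only, and 0 with a 60th percentile floor and with bright signals only. Of 511 recomputed values of single genes, 505 moved by less than the SD of 0.30 between probe sets. Many of the 511 could not move. Keeping only subunits or adding probe sets with several symbols left each gene ratio as it was. A bright gene with 1 probe set and no suffix letter could move only under quantile normalization or loess. The count is therefore no measure of stability. Other scalings moved the median of all genes by at most 0.034, which turned it above 0, to 0.011 after quantile normalization and 0.008 after loess. No paired analysis was possible because each group has 1 pool. No replicate could be left out. Low signal limits Ndufs1, Cox8b, Cox6a2 and Cox5a, and having 1 array a group limits every value.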

Other observations

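The symbol rule left out 5 probe sets whose platform annotation names a subunit gene together with a near-identical copy, and the copies cannot be told apart. All 5 were slightly lower in the portal hypertensive pool. Of the 4960 probe sets above the floor in both pools, controls left out, 2633 were lower. The ratios of these 5 were smaller than the SD of 0.30 between probe sets of the same gene, and their common direction was not tested. The probe set for Atp5mc1, which encodes the c subunit of the ATP synthase ring, read 8026 and 7106 (log2 ratio -0.18), and that for Atp5mc2, a second gene of the same subunit, 24221 and 23639 (-0.035). Those for Ndufs5 and Ndufb4 of complex I had -0.10 and -0.068, and that for Cox7a2 of complex IV -0.091. The complex II assembly factor Sdhaf2 had -0.014.

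Genes of cytosolic ribosomal proteins, chosen by symbol, had a median of 0.15, where that of complex I was -0.061. Of 42 with a value 32 were above 0 and 10 below. These are 76.2% above 0, against 46.8% of all named genes. Among probe sets outside the members with a mean signal of 10000 or more, 59.5% were above 0. The lists were not matched for signal. The difference between the lists was not tested.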
